A study of Homo sapiens with 2 samples.

Results

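The genes of glucose uptake, glycolysis, lactate handling and the tricarboxylic acid (TCA) cycle were examined in Ca9-22 cells, an oral squamous cell carcinoma (OSCC) line, with and without ectopic expression of the long noncoding RNA DLEU1. The members were all non-control probes carrying 1 of 39 gene symbols of these pathways, which gave 52 probes of the 58201 on the array and 39 of its 43317 gene names. One culture had been infected with a lentiviral vector carrying full-length DLEU1 cDNA and the other with an empty control vector. Both were selected with blasticidin, at 6 mg/ml per the labels, for 2 weeks, and whether either was a clone was not stated. Each of the 2 groups had 1 array, so no test was possible and every value below describes these 2 cultures.

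Glucose enters the cell through facilitative transporters and is trapped by hexokinase. Glycolysis first spends ATP to make triose phosphates and then regains it on the way to pyruvate. Lactate dehydrogenase turns pyruvate into lactate, which leaves the cell with a proton through monocarboxylate transporters, whereas the pyruvate dehydrogenase complex passes it to the TCA cycle in the mitochondrion. Squamous carcinomas are known for avid glucose uptake and for lactate output in the presence of oxygen.

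The labels were checked first on DLEU1 itself. Its brightest probe (chr13:50679272-50679331, hg19) went from 3.17 in the control culture to 5.91 in the DLEU1 culture (log2 level relative to the 75th percentile of the array), 2.74 or 6.67-fold higher. The other DLEU1 probes detected on both arrays were dim and differed by far less, 0.85 (1.81-fold) and 0.54 (1.46-fold), and the mean of all its probes gave 1.38. All 8 squamous epithelial markers read were detected on both arrays. Of the markers of other cells, 1 of 5 for fibroblasts, 3 of 4 for leukocytes and 2 of 3 for endothelium were detected on both arrays, while COL1A2, DCN, THY1, CD3E and PECAM1 were on neither. COL1A1 was 15.9-fold and VWF 13.01-fold higher with the DLEU1 vector, LUM was detected with that vector only (at least 2.47-fold higher), and their part in the results was not tested. A strip of damaged spots on the array with the DLEU1 vector, taken here as columns 36 to 40 in part of the rows, held 1 member probe, for SLC2A3. The SD of a log2 difference between replicated spots was 0.080 over 282 probes. Between different probes of the same member it was 0.37, pooled over 10 genes. Neither holds the variation between cultures.

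With the DLEU1 vector most glycolytic and TCA cycle genes were lower, while the glucose transporter gene SLC2A1 and some isozyme genes were higher. Of the 39 members, 38 were detected on both arrays and SLC2A3, the neuronal-type glucose transporter, on neither. Of these 38, 27 were lower and 11 higher, with a median log2 difference of -0.48, whereas over all 20246 genes detected on both arrays 54.2% were lower and the median was -0.07. At least 2-fold lower were 5 members (13.2%, against 9.78% of all genes), namely HK2, FH, LDHA, GPI and ENO1. At least 2-fold higher were 2 members (5.26%, against 9.18%), SLC2A1 and PFKFB2. At 1.5-fold, 16 of the 38 members were lower (all genes, 4459 of 20246, 22%) and 4 of the 38 higher (all genes, 3731 of 20246, 18.4%). The shares past 2-fold were thus near those of the array as a whole. At 1.5-fold the share lower was larger among the members than over all genes, and the share higher was smaller.

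The shift was smaller with the scalings that follow the signal. The loess fit left the median of the members at -0.22, with 23 of 38 lower, beside a median of 0.019 over all genes. It left 2 members at least 2-fold lower (all genes, 7.97%), and so did quantile normalization (all genes, 8.64%). The spike-in RNAs were brighter on the DLEU1 vector array, by a median of 0.42 over 8 detected probes, and setting them equal gave a median of -0.94 and 17 members at least 2-fold lower and 0 higher. The whole array moved with them, to a median of -0.53, with 24.0% of all genes at least 2-fold lower and 4.57% higher. A total of 22 members were lower and 7 higher under each of the 13 settings that gave gene values, and OGDH was lower in the 12 that measured it. Only HK2 and FH were past 2-fold in each of the settings. Of the 7 higher members, PFKFB4 and ENO2 fell below the SD between replicated spots with spike-in scaling (0.025 and 0.026).

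**Figure D1:**
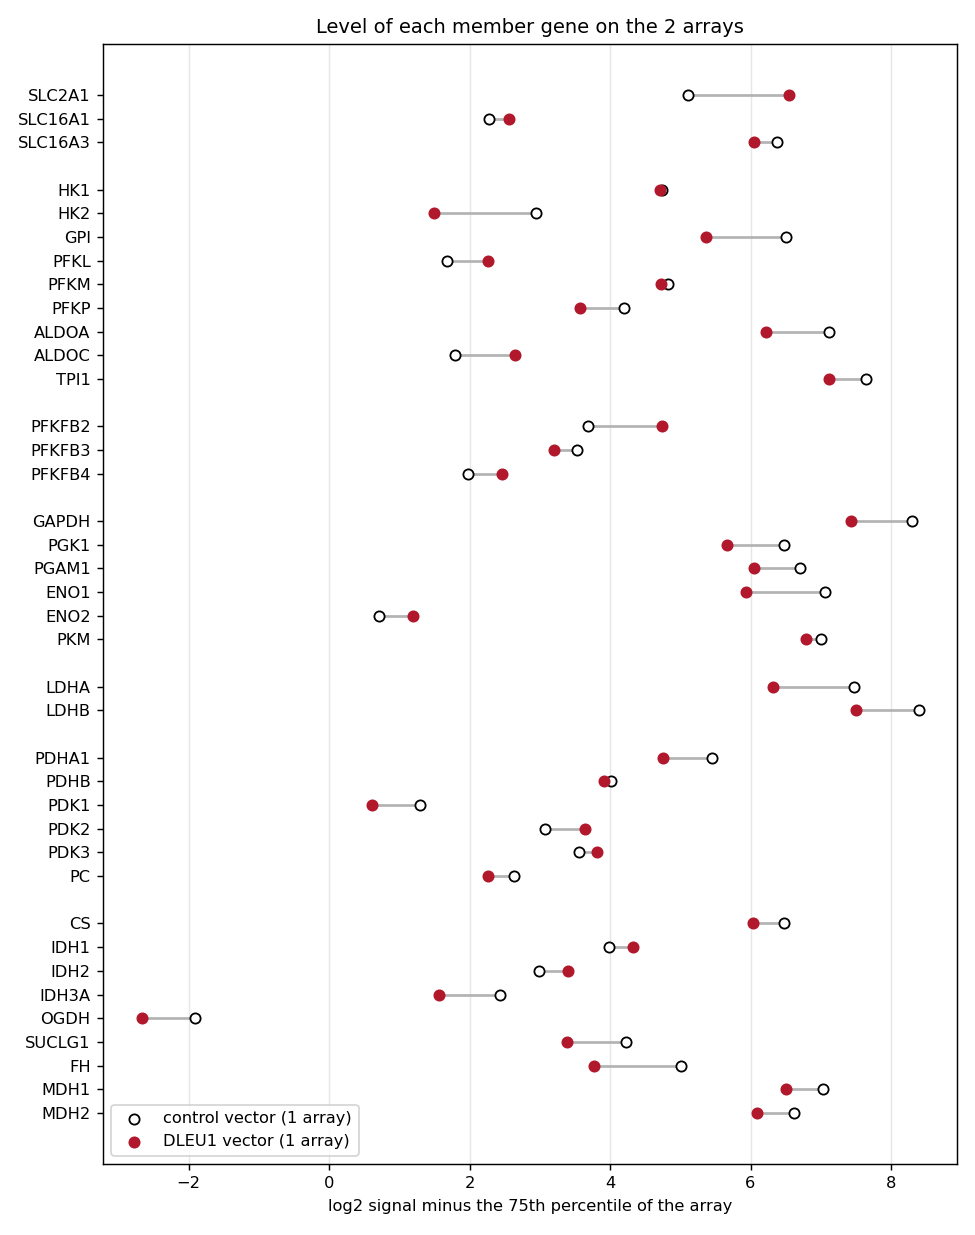
Log2 signal minus the 75th percentile of the array (horizontal axis) for the 38 members detected on both arrays, in order of pathway role, with 1 array per group (open circles, control vector; filled circles, DLEU1 vector) and no error bars. In 27 rows the filled circle lies to the left, and the widest gaps are those of HK2 (2.95 to 1.496) and SLC2A1 (5.11 to 6.55); levels of different genes come from different probes and are not comparable.

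SLC2A1 encodes the basal glucose transporter of epithelial cells (probe at chr1:43391874-43391933, hg19). Its level went from 5.11 in control cells to 6.55 in DLEU1 cells, 2.71-fold higher and the largest increase among the members. The difference of 1.44 became 0.98 with spike-in scaling, just under 2-fold. SLC2A3 had both of its probes at background on both arrays, with levels from -6.04 to -5.13, so no fold is given. The lactate transporters differed little. SLC16A1, which encodes a transporter for uptake and release, had a difference of 0.28, or -0.18 after spike-in scaling. SLC16A3, which encodes the main lactate exporter of glycolytic cells, had a difference of -0.33.

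The hexokinase isozymes were unequal. HK2, the inducible hexokinase (probe at chr2:75120331-75120390), went from 2.95 in control cells to 1.496 in DLEU1 cells, 2.74-fold lower and the largest decrease among the members. HK1, the constitutive hexokinase, had levels of 4.74 and 4.72 and was the member nearest to 0 (-0.03). A dim probe of HK2 was detected on neither array. GPI, the isomerase of the next step (probe at chr19:34891174-34891233), was 2.21-fold lower (6.51 to 5.36).

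The other enzymes of the preparatory phase, which ends with the triose phosphates, were mixed. Of its 9 genes, 7 were lower and 2 higher, whereas 54.2% of all genes were lower. Their median was -0.54, and they ran from HK2 (-1.46) to ALDOC (0.85). Phosphofructokinase, the committed step, has liver, muscle and platelet subunits. PFKP was lower by 0.61 at its brightest probe and by 0.73 at its other probe, whereas PFKM differed by -0.09 and PFKL was higher by 0.59. Among the aldolases, ALDOA went from 7.11 in control cells to 6.22 in DLEU1 cells, and the brain-type ALDOC had levels of 1.79 and 2.64. TPI1, which interconverts the triose phosphates, differed by -0.54.

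The PFKFB enzymes make and break fructose 2,6-bisphosphate, the strongest activator of phosphofructokinase. PFKFB2 was the second member past 2-fold upward, from 3.69 to 4.75 (2.09-fold), but this held for only 1 of its 2 probes. The other, of transcript NM_001018053, went from 0.04 to -0.32, and the mean of both probes gave 0.35. PFKFB4 was higher by 0.49. PFKFB3, whose kinase activity far outweighs its phosphatase activity, differed by -0.33 at its brightest probe and by 0.12 at a dim one.

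In the payoff phase, which yields ATP, 5 of 6 genes were lower (all genes, 54.2%), with a median of -0.74. GAPDH, which makes NADH, went from 8.30 in control cells to 7.43 in DLEU1 cells, 1.83-fold lower. Its probe was spotted 10 times, and the SD over the spots used was 0.044 (n = 8) and 0.038 (n = 10), beside a difference of -0.87. The spots of an array share 1 culture, so this SD does not hold the variation between cultures. PGK1, the first ATP-yielding step, was measured as precisely, at 6.48 ± 0.047 and 5.67 ± 0.053 (SD over spots, n = 10), 1.76-fold lower. PGAM1, a mutase, was lower by 0.66 and by 0.54 at its 2 probes. ENO1, the enolase of most tissues (probe at chr1:8924054-8924113), fell from 7.06 to 5.93, 2.18-fold, while the neuronal enolase ENO2 was higher, at 0.71 and 1.20. PKM, the pyruvate kinase of most tissues, had 1 probe and differed by -0.21, a difference that turned positive (0.088) with loess.

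Both lactate dehydrogenase genes were lower. LDHA, whose subunit favours the making of lactate, went from 7.47 in control cells to 6.32 in DLEU1 cells, 2.22-fold lower. The second LDHA probe gave nearly the same difference (-1.15 at both), but its position in the files lies on chromosome 9 rather than on chromosome 11 with the gene, and whether it also reads a near-identical copy was not tested. LDHB had a difference of -0.89 at its brightest probe and -1.08 at the other. GPI, ENO1 and LDHA were no longer past 2-fold with quantile normalization or loess, where LDHA differed by -0.85 (loess).

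**Figure D2:**
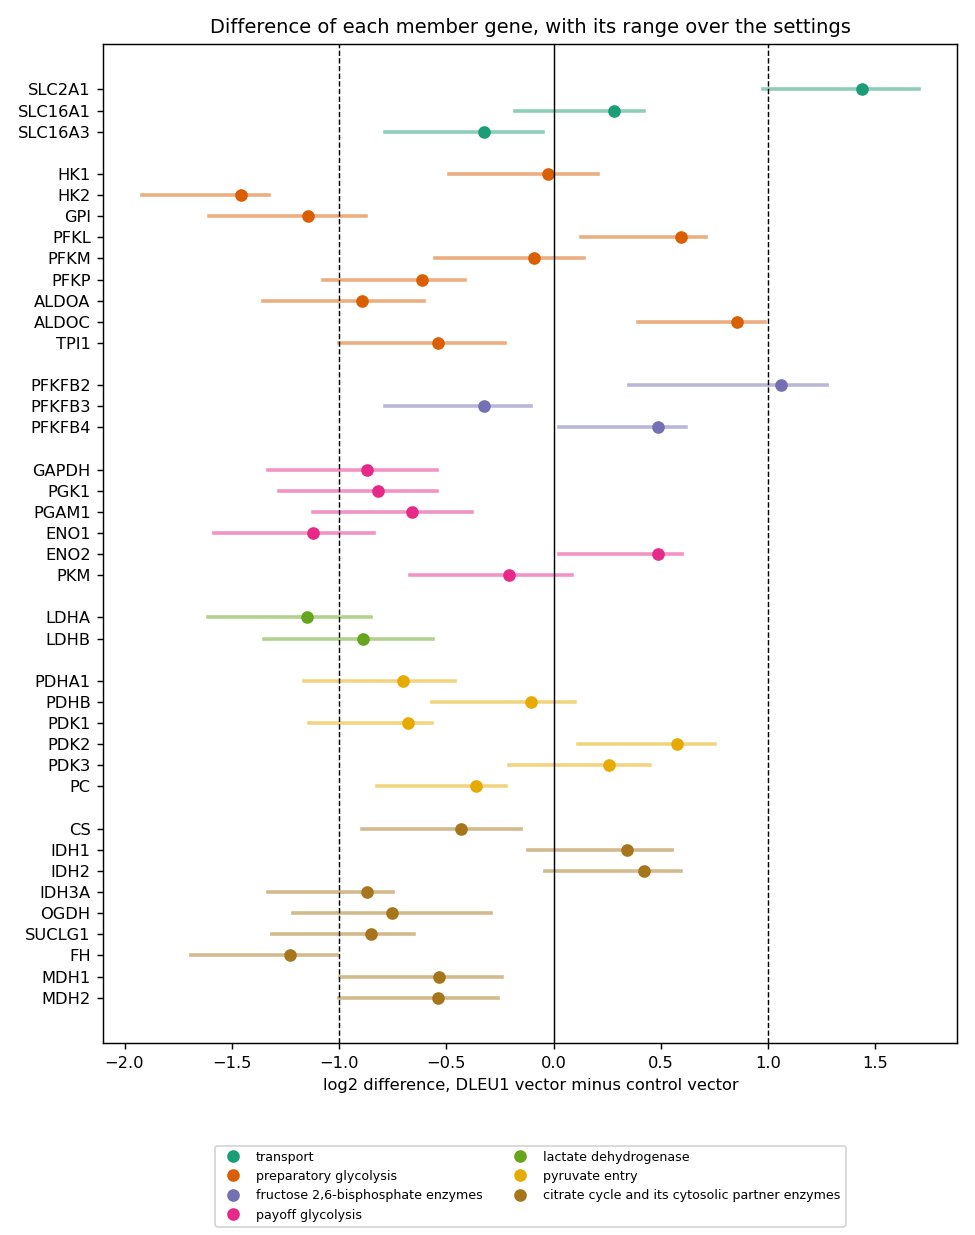
Log2 difference, DLEU1 vector minus control vector, of each of the 38 members (points, coloured by role), with a bar from the lowest to the highest value over the settings and dashed lines at 2-fold. The bars of HK2 and FH stay below the lower dashed line throughout, and that of SLC2A1 runs from 0.98 to 1.70.

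Entry of pyruvate into the mitochondrial pathway showed opposite differences among its regulators. PDHA1, the catalytic subunit of pyruvate dehydrogenase that the kinases phosphorylate, had a difference of -0.70, and PDHB, its partner subunit, of -0.10. PDK1, a kinase that switches the complex off, was lower by 0.68 (1.29 to 0.61). PDK2 was higher at both of its probes, by 0.57 and 0.50. The probes of PDK3 disagreed, with 0.26 for transcript NM_001142386 and -0.43 for transcript NM_005391. PC, the carboxylase that replenishes oxaloacetate, differed by -0.36. None of these 6 genes was past 2-fold, and their median was -0.23.

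Of the 9 genes of the TCA cycle and its cytosolic partner enzymes, 7 were lower (all genes, 54.2%), with a median of -0.54. FH, the fumarate hydratase (probe at chr1:241667426-241667485), went from 5.01 in control cells to 3.78 in DLEU1 cells, 2.34-fold lower. IDH3A, of the NAD-dependent isocitrate dehydrogenase, was lower by 0.87 and SUCLG1, of succinyl-CoA ligase, by 0.85. OGDH, of the 2-oxoglutarate dehydrogenase complex, was dim (-1.91 and -2.66), and its difference of -0.75 became -0.29 with normexp background correction. CS, which condenses acetyl-CoA with oxaloacetate, differed by -0.43, and the cytosolic and mitochondrial malate dehydrogenases MDH1 and MDH2 by -0.54 each. The NADP-dependent isocitrate dehydrogenases went the other way. IDH1 (cytosolic) was higher by 0.34 and IDH2 (mitochondrial) by 0.42, and both changed sign with spike-in scaling.

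A gap between isozymes on the same arrays cannot come from a constant scaling factor, so the families were set side by side. Settings that only shift a whole array by a constant cannot change such a gap, so the ranges below come from the other settings. ALDOC stood 1.75 above ALDOA in log2 difference (1.59 to 1.75 over the settings), ENO2 1.61 above ENO1 (1.40 to 1.61) and HK1 1.43 above HK2 (1.33 to 1.56). PFKL stood 1.21 above PFKP (1.11 to 1.26). The corresponding gaps were 1.29 for IDH2 above IDH3A and 1.25 for PDK2 above PDK1, and both stayed above 2-fold in each setting (lowest 1.26 and 1.16). LDHB and LDHA differed from each other by 0.26, and MDH1 and MDH2 by 0.0040, within the spread of replicated spots. In the phosphofructokinase, aldolase, enolase and pyruvate dehydrogenase kinase families, 1 isozyme was higher and another lower under each of the 13 settings. With spike-in scaling the higher isozymes came close to 0, at 0.026 for ENO2, 0.11 for PDK2 and 0.13 for PFKL, while ALDOC was at 0.39. The value of ENO2 was then below the SD between replicated spots (0.080). The PFKFB family was split likewise, with PFKFB2 and PFKFB4 higher and PFKFB3 lower in each setting, but PFKFB4 was at 0.025 with spike-in scaling. PFKFB2 stood 1.39 above PFKFB3, or 0.45 with the mean of probes, and the probes of both genes went opposite ways.

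**Figure D3:**
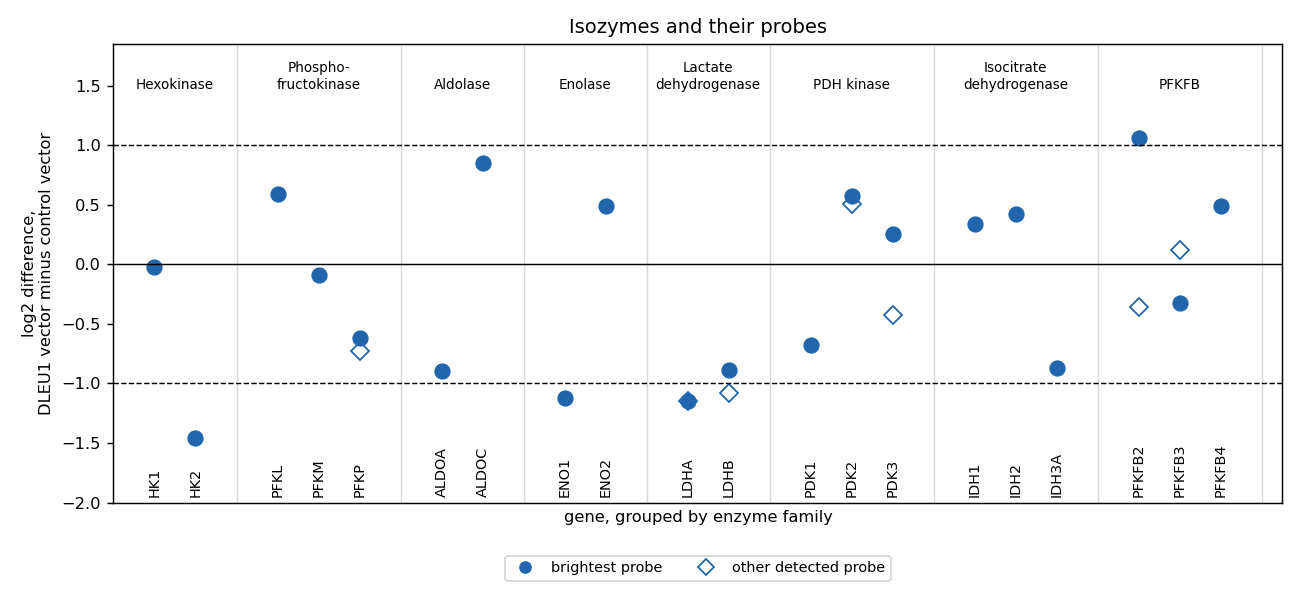
Log2 difference, DLEU1 vector minus control vector, for the isozymes of 8 enzyme families (filled circles, brightest probe; open diamonds, other detected probe; dashed lines at 2-fold; 1 array per group). ALDOC, ENO2 and PDK2 lie above 0 and ALDOA, ENO1 and PDK1 below it, while the 2 probes of PFKFB2 lie at 1.06 and -0.36.

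How far different probes of a gene matched was read for the 10 members with a pair of detected probes. In 7 of them both probes went the same way, and their differences were within 0.23 of each other. In PFKFB2, PFKFB3 and PDK3 they went opposite ways, by up to 1.42. The files assign the probes to different transcripts for PFKFB2 and PDK3, but also for PFKP, LDHB and PDK2, whose probes went the same way, and to 1 transcript for PFKFB3. The start of the PFKFB2 and PDK3 probes is shown with that of the LDHA probes, as the first 30 bases of 60 (positions on hg19, given by the files, 5′ to 3′).
PFKFB2, NM_006212, chr1:207251103-207251162, plus strand: gtgtttttgtgtgcgtgtgtgtagaatggg
PFKFB2, NM_001018053, chr1:207253693-207253752, plus strand: tcaaatggttcttttatactgtggatgata
PDK3, NM_001142386, chrX:24568434-24568493, plus strand: aaacatgaccagagaagcatgtgactcaga
PDK3, NM_005391, chrX:24546208-24546267, plus strand: ggtggtgtcccacttcgaaaaatagatcgt
LDHA, brightest probe, chr11:18428789-18428848, plus strand: agatacactttgggggatccaaaaggagct
LDHA, other probe, chr9:14921817-14921876, minus strand: tttcccaaaaaccatgttattggaagtggt

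Glycolytic genes are textbook targets of the hypoxia-inducible factors, which bind ACGTG or GCGTG, and of MYC, which binds CACGTG. The letters were searched on both strands in the 250 bases before the start site in RefSeq promoters (GRCh38.p14), where 35 of the 39 members had an entry and SLC2A3, SLC16A1, PFKFB2 and OGDH did not. ACGTG or GCGTG lay in 21 of the 35 (60%), against 43.2% of all 35116 promoters, and CACGTG, which contains ACGTG, in 4 (11.4%, against 6.34%). The 150 bases before the start are shown for the members past 2-fold that had an entry, to set the single increase beside the 5 decreases. Capitals mark ACGTG or GCGTG on either strand.
SLC2A1, higher, chr1:42958869-42959018, minus strand: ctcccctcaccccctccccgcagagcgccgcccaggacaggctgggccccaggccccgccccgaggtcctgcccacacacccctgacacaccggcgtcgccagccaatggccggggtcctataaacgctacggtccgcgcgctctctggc
HK2, lower, chr2:74833977-74834126, plus strand: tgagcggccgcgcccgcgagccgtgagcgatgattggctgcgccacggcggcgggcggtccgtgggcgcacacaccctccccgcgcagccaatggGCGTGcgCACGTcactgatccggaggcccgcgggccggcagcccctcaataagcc
GPI, lower, chr19:34364842-34364991, plus strand: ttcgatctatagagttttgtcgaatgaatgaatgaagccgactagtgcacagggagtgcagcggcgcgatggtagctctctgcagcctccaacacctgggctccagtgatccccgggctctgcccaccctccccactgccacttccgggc
ENO1, lower, chr1:8878687-8878836, minus strand: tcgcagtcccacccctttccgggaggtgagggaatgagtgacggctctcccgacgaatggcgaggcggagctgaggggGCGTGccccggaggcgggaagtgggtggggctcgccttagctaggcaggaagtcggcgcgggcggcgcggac
LDHA, lower, chr11:18394413-18394562, plus strand: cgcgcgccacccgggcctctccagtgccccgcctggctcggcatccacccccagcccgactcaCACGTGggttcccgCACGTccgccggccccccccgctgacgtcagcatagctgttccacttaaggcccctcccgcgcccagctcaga
FH, lower, chr1:241519756-241519905, minus strand: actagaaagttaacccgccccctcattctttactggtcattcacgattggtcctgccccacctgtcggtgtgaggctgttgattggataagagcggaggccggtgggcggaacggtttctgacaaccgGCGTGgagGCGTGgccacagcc
The stretches of HK2, ENO1, LDHA and FH hold these letters, and LDHA holds CACGTG. Those of SLC2A1 and GPI do not, which says only that the letters are not in these stretches. In the 250 bases searched, GPI has 1 ACGTG outside the stretch shown and so counts among the 21, whereas SLC2A1 has 0 of either form.

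A wider list of 66 genes of the same pathways that were not members gave a similar picture. Of these, 51 were detected on both arrays, 38 lower (74.5%, all genes 54.2%) and 13 higher, with a median of -0.32. At least 2-fold lower were 8 (15.7%, all genes 9.78%) and at least 2-fold higher 3 (5.88%, all genes 9.18%). In the mitochondrial part these were ME2 (malic enzyme, 2.96-fold lower), SDHB and SDHD (subunits of succinate dehydrogenase, 2.78-fold and 2.15-fold lower) and MPC1 (of the mitochondrial pyruvate carrier, 2.38-fold lower). The hexokinase-like HKDC1 was 2.76-fold lower (0.81 to -0.65) and the lactate transporter SLC16A7 2.85-fold (-2.01 to -3.52). The testis-type LDHC was 2.44-fold lower (-1.17 to -2.46) and RPIA, of the pentose phosphate pathway, 2.05-fold (3.44 to 2.40). SLC16A7 and LDHC were dim, on arrays whose lowest detected levels were -4.09 (control vector) and -4.04 (DLEU1 vector). The increases were those of SLC2A5, the fructose transporter (11.1-fold, from -2.48 to 0.99), SLC2A12, another glucose transporter (3.24-fold, from -3.67 to -1.98), and LDHD, which oxidises D-lactate (2.45-fold). With the control vector SLC2A5 and SLC2A12 were dimmer than SLC16A7 and LDHC, and SLC2A12 lay close to the lowest detected level. Another 2 genes were detected with the control vector only, PFKFB1 (at least 1.14-fold higher there) and G6PC (at least 1.62-fold), and FBP1 with the DLEU1 vector only (at least 1.89-fold).

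The members were set beside lists that share a regulator or compartment with them, as a description. The 84 detected nuclear gene names beginning like those of the respiratory chain, assembly factors included, had a median of -0.45, from ATP5G1 (-1.39) to COX8C (0.86). Of them, 77 were lower (91.7%, all genes 54.2%). The 17 detected hypoxia-responsive genes outside the pathway had a median of 0.30, and 12 were higher (all genes, 9278 of 20246), from NDRG1 (2.39, 5.24-fold higher) to BNIP3 (-1.69). This median turned to -0.16 with spike-in scaling and was 0.15 without the damaged strip. Members known to respond to hypoxia lay on both sides, among them SLC2A1 and PFKFB4 (higher) and PGK1, LDHA, ENO1, HK2 and PDK1 (lower).

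Cell cycle and differentiation genes moved with these results. Each of the 18 proliferation genes read was past 2-fold downward (all genes, 9.78%), with a median of -2.73, from RRM2 (-3.24) to MCM6 (-1.92). The 10 differentiation genes detected on both arrays were higher (all genes, 9278 of 20246), with a median of 4.78, from KRT10 (0.53) to SPRR3 (9.88). KRT1 and LOR were detected with the DLEU1 vector only. Their part in the differences of the members was not tested, and in bulk RNA fewer cells of a type and less RNA per cell cannot be told apart.

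**Figure D4:**
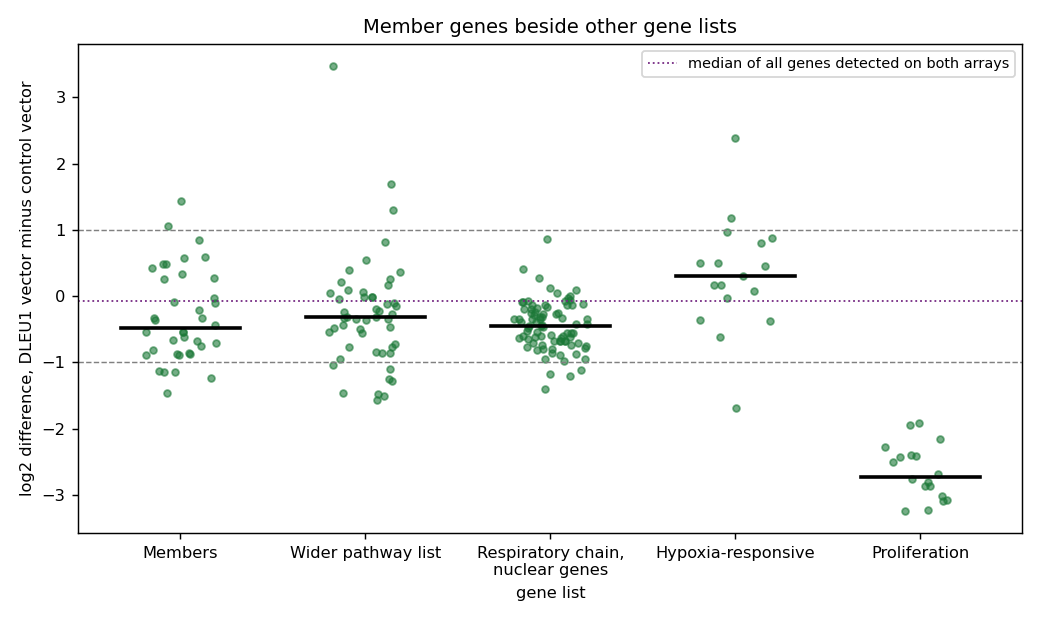
Log2 difference, DLEU1 vector minus control vector, of the genes detected on both arrays in each list (points; black bars, medians; dotted line, median of all genes at -0.07; dashed lines at 2-fold; 1 array per group, 1 point per gene). The members (median -0.48) lie near the wider list (-0.32) and the respiratory chain (-0.45), below the hypoxia-responsive genes (0.30) and far above the proliferation genes (-2.73).

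Brighter members were mostly lower, while dimmer ones went both ways. The 19 brighter members had a median difference of -0.66 and the 19 dimmer ones of 0.26, and all 2690 genes at least as bright as the median member had -0.28. After loess, which takes off such a trend, the medians were -0.38, 0.42 and 0.0042. Without loess the dimmer members ran from HK2 (-1.46) to PFKFB2 (1.06). Their median of 0.26 was the value of PDK3, whose other probe went the opposite way (-0.43). Across the 38 members, which share both arrays, the correlation of mean level with difference was -0.27 (Pearson) and -0.36 (Spearman), and -0.16 and -0.24 after loess.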

How the data were processed

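Expression was measured on Agilent 1-colour arrays (SurePrint G3 Human GE v3) from 100 ng of Cy3-labelled RNA per culture. The deposited intensity values, from Agilent Feature Extraction 10.7.3.1 per the file headers, had a background surface fitted across the array subtracted (no local background), were detrended within the array and held a surrogate for dim spots. The authors used GeneSpring, and neither the scanner files nor the series values were normalized between the arrays. Probe positions were on hg19.

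Control spots and spots marked as outliers were left out, the log2 intensity of the spots of a probe was averaged, and the 75th percentile of the array was subtracted (7.92 for the control vector, 7.88 for the DLEU1 vector). A probe was called detected where most of its spots were marked well above background. Each gene took its value from its brightest probe among those detected on both arrays.

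Since each group had 1 array, neither tests nor p-values were computed, and precision is limited by this number of arrays. Members, lists and settings were chosen with earlier results of these data known. Of the 39 member symbols, 39 were current in RefSeq. The genes named with values were the members, the genes of the wider pathway list at least 2-fold apart, the extremes of the other lists and DLEU1. The other settings were 14 changes of scaling, background correction, source of values, filter, probe summary, threshold and spots. Python 3.11.15, R 4.3.3 and limma 3.58.1 (quantile, loess with a span of 0.3, normexp with an offset of 50) were used.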

Additional observations from a re-analysis of the deposited data

How the results depend on the processing

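With 1 array per group no array could be left out, and a value was taken as moved where it changed by more than the SD between replicated spots. No paired analysis was possible because each group had 1 array, numbered only in accession order. Medians of the gene lists and the difference of DLEU1 moved as follows. Relative to the reported scaling, the median of all genes shifted by -0.11 with median scaling, by 0.11 with that percentile taken over detected probes and by -0.46 with spike-in scaling. Median scaling gave the members -0.60, DLEU1 2.62, wider list -0.43, hypoxia 0.19, respiratory chain -0.57, proliferation -2.84, differentiation 4.67, transport 0.17, preparatory phase -0.65, PFKFB 0.37, payoff phase -0.85, lactate dehydrogenase -1.13, pyruvate entry -0.35 and TCA cycle -0.65. In the same order, the detected probes' percentile gave -0.37, 2.85, -0.21, 0.41, -0.34, -2.61, 4.90, 0.39, -0.43, 0.60, -0.63, -0.91, -0.12 and -0.43. Spike-in scaling gave -0.94, 2.28, -0.78, -0.16, -0.92, -3.19, 4.32, -0.18, -0.999, 0.025, -1.20, -1.48, -0.69 and -1.001, so that hypoxia and transport changed sign. Without hypoxia but otherwise in that order, quantile normalization gave -0.28, 2.92, -0.22, -0.23, -2.61, 4.93, 0.39, -0.36, 0.59, -0.51, -0.81, -0.083 and -0.34, and loess gave -0.22, 2.96, -0.16, -0.20, -2.58, 5.01, 0.42, -0.23, 0.62, -0.46, -0.71, -0.060 and -0.26.

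Normexp gave proliferation -2.47 and differentiation 4.16. No filter on dim probes gave the wider list -0.24, differentiation 5.45 and transport 0.58, and a minimum signal of 100 gave differentiation 3.99. Averaging the probes gave DLEU1 1.38, hypoxia 0.17, proliferation -2.61, differentiation 5.45 and PFKFB 0.35. Leaving out the damaged strip gave hypoxia 0.15.

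Of the members, 1 was at least 2-fold higher with median scaling or the mean of probes, 2 were at least 2-fold lower with quantile normalization or loess, and 0 were higher and 17 lower with spike-in scaling. Median scaling gave 7 members at least 2-fold lower, against 5 with the reported scaling. At 1.5-fold 4 were higher and 16 lower, and at 3-fold 0 and 0. Over all genes, 1858 were at least 2-fold higher and 1981 lower. Spike-in scaling gave 925 and 4856, no filter on dim probes 4232 and 3807, a 1.5-fold threshold 3731 and 4459 and a 3-fold threshold 774 and 671. Normexp gave 1121 higher and the signal filter 1026 higher. Of 455 values of single members under other settings, 262 moved by less than the SD between spots and 193 by more. There were 15 sign changes in 8 members, and 0 of the members past 2-fold reversed. The 8 were HK1, PFKM and PDHB (3 settings each), PDK3 (2) and SLC16A1, PKM, IDH1 and IDH2 (1 each). The cause of these shifts was not tested. OGDH, with no value at that minimum, was limited by signal over background.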
